A study of Mus musculus with 36 samples.

Results

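The breakdown of amino acids in the mouse kidney was followed through 49 enzyme genes listed by name. The list was drawn up with earlier results of these data known, though no measured value is part of the rule. Of the 49, 43 were measured, by 67 probe sets that carry a single gene symbol, out of 17097 genes and 28898 such probe sets on the Affymetrix HT MG-430 PM array. Dld, Ivd, Gatm, Got1, Amt and Gcsh were not analysed here, and Mut is listed under the symbol Mmut. RNA came from frozen kidneys of wild-type male C57BL/6 mice aged 10 to 12 weeks, 1 array per mouse. In the first cohort, mice were given 3-day fasting (n = 4) or ad libitum access to SDS, the standard chow (n = 5). In the second cohort, mice were given 2-week 30%DR, which is dietary restriction on SDS chow with 1 meal a day (n = 5), or SDS ad libitum (n = 3). The other mice of the second cohort had ad libitum access to a 3-day protein-free (n = 5), 3-day CHO-free (carbohydrate-free, n = 5) or 3-day fat-free diet (n = 4), or to the Control diet made for these 3 diets (n = 5). In the CHO-free diet the carbohydrate was replaced mainly by protein, and in the protein-free diet the protein by carbohydrate, so these diets differ in both nutrients at once. The fat-free diet held more protein than Control, at the same carbohydrate content by weight, so fat was not its only difference. SDS and Control also differ in their protein source. The question was which steps of amino acid breakdown differ after each diet from the control mice of the same chow and cohort. The fasting cohort, hybridised and normalised apart, was tested apart. The second cohort is a set of arrays normalised together, and the paper treats 30%DR with its SDS mice as a feeding cohort of its own. The 3 macronutrient diets share the same 5 Control mice, so their comparisons are not independent of each other.

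Amino acids that are not used for protein synthesis lose their nitrogen by transamination or deamination, and the carbon skeletons are broken down to glucose precursors, ketone bodies or carbon dioxide. The liver handles most of this, whereas branched-chain amino acids are largely broken down in other tissues. The kidney takes up glutamine, glycine, proline and citrulline, releases ammonia and serine, makes arginine, and forms glucose from amino acid carbon during starvation. Most of these enzymes lie in the mitochondria and cytosol of proximal tubule cells. A change in a signal from whole kidney may reflect either fewer cells of a type or less RNA per cell, and these cannot be told apart.

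All values are the deposited signals on the log2 scale, so a difference of 1 is a doubling. A gene is given by its brightest probe set, and it was called when the fold change was at least 1.5 and the limma adjusted p, over all 45141 probe sets, was below 0.05. Of the 43 enzymes, 9 were called in at least 1 diet and 34 in none. The share of all genes called in at least 1 diet was not counted, so these counts have no background to be set against. Hpd was called in 4 of the 5 diets. Bcat1, Aadat, Kynu, Arg2 and Gldc were called in 2 diets, and Gpt, Gpt2 and Dao in 1.

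After 3-day fasting, 5 of the 43 enzymes rose (Arg2, Gldc, Gpt, Hpd and Gpt2) and 3 fell (Bcat1, Aadat and Dao), while 2.93% of all genes were called higher and 3.52% lower. After 2-week 30%DR, Hpd alone rose and 0 enzymes fell by this test, against 0.509% of all genes higher and 0.608% lower, and 6 of the 43 had an unadjusted p below 0.05. After the 3-day protein-free diet 2 enzymes rose (Hpd and Kynu) and 1 fell (Bcat1), against 0.526% of all genes higher and 0.497% lower. After the 3-day CHO-free diet 4 rose (Gldc, Arg2, Hpd and Kynu) and 1 fell (Aadat), against 1.5% of all genes higher and 2.61% lower. The 3-day fat-free diet gave 0 called enzymes, with 0% of all genes called higher and 0% lower. In limma 3 of the 43 enzymes had an unadjusted p below 0.05. The share of all genes at that unadjusted p was not counted. Such counts, here and below, therefore cannot be set against the shares of called genes. The median difference over the 43 enzymes was 0.08 after fasting, 0.01 after 30%DR, 0.00 after the protein-free diet, 0.02 after the CHO-free diet and 0.02 after the fat-free diet. Over all genes these medians lay between -0.01 and 0.02.

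**Figure D1:**
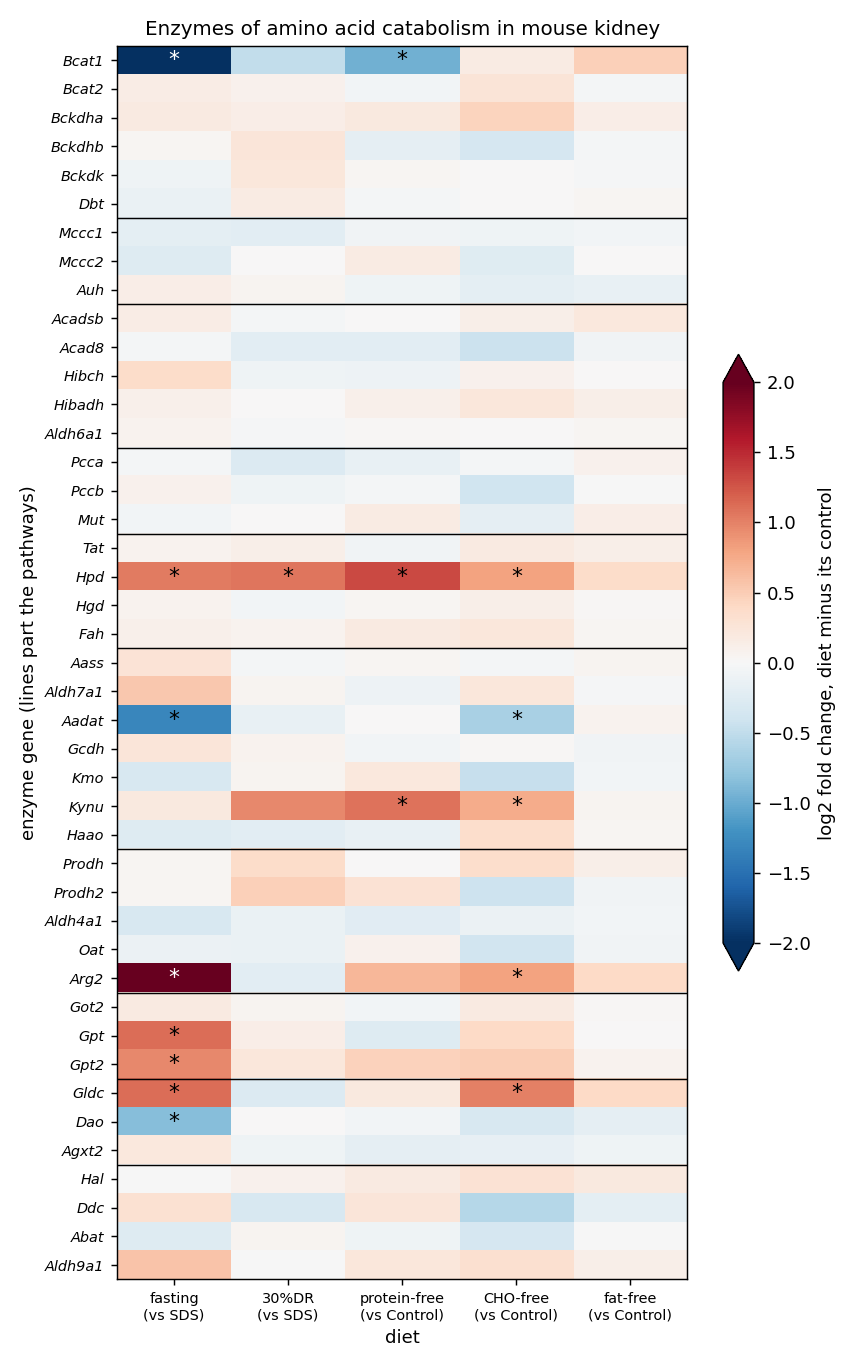
Log2 fold change of the 43 measured enzymes (down the page, lines part the pathways) in each of the 5 diets against its own control (across). Asterisks mark called genes, and the colour scale ends at a size of 2, which Bcat1 (-2.84) and Arg2 (2.18) exceed after fasting. Hpd is marked in 4 diets, and most other enzymes are near white.

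The 250 bases before the transcript start are shown for the enzymes called in 2 or more diets, since these carry most of the results. The RefSeq promoter table (GRCm38.p6) holds 4 of the 6, Bcat1 with 2 starts. Letters of a motif that was found stand in capitals, read 5′ to 3′ on the strand of the gene.
Bcat1 (start 1), chr6:145076158-145076407, minus strand: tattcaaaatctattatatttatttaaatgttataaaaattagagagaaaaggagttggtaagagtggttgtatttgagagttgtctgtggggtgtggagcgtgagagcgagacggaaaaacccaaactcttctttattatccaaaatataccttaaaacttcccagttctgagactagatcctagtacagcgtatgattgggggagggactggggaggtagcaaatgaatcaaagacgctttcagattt
Bcat1 (start 2), chr6:145048813-145049062, minus strand: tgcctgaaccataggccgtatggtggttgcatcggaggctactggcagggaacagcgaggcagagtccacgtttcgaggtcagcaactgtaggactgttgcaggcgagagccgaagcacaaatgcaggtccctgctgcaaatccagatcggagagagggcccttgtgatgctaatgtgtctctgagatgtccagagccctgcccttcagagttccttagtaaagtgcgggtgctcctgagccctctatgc
Hpd, chr5:123182724-123182973, minus strand: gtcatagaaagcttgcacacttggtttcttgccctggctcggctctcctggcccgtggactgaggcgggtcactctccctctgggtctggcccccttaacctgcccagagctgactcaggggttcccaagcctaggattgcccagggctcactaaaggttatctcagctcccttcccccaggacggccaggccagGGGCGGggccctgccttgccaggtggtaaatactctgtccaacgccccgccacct
Aadat, chr8:60505874-60506123, plus strand: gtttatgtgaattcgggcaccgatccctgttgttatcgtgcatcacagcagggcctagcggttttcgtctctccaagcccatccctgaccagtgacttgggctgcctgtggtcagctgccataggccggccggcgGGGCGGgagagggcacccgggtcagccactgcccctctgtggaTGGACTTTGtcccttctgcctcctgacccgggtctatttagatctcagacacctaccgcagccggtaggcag
Gldc, chr19:30175442-30175691, minus strand: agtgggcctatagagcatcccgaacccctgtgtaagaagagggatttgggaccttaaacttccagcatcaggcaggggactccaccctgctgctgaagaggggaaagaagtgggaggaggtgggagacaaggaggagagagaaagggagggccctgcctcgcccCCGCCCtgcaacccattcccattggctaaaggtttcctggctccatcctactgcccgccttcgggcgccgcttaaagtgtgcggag

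The motifs searched, on both strands, were CAAAGTCCA (bound by HNF4), TGTTTAC (FOXO), TGATGNAA (C/EBP-ATF), TGACGTCA (CRE), CACGTG (E-box) and GGGCGG (GC box), and none of them overlapped another in these windows. The HNF4 letters were found in Aadat, on the other strand, starting 72 bases before the transcript start. They occur in 0.384% of the 32851 windows of this length in the table, and in 3 of the 45 windows of the measured enzymes. The GC box was found in Hpd, Aadat and Gldc, and it occurs in 32.7% of all windows and 15 of the 45. Of the 45 windows, 1 held the FOXO letters (3.17% of all windows) and 2 the E-box (6.02%). The C/EBP-ATF and CRE letters were in 0 of them (3.45% and 1.55% of all windows). None of these counts was tested. Neither Bcat1 window held any of the 6 motifs. A match describes these letters only.

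Of the enzymes of tyrosine breakdown, Hpd (4-hydroxyphenylpyruvate dioxygenase, which makes homogentisate) was higher in 4 diets. Its log2 signal was 9.21, 9.40, 9.15 and 9.35 in fasted mice, against 8.11, 8.31, 8.17, 8.07 and 8.50 in their SDS controls. Every fasted mouse lay above every control, by 1.04 on average (SE 0.093, 2.06-fold, limma adjusted p = 2.16e-05). After 30%DR the signals were 8.98, 8.64, 8.73, 7.84 and 8.83, against 7.31, 7.80 and 7.50 in SDS controls. The groups nearly met, 1 restricted mouse (TS77) lying far below the other 4, and the difference was 1.07 (SE 0.24, adjusted p = 0.0218). In protein-free mice Hpd had 8.53, 8.92, 8.54, 8.29 and 8.63 and in CHO-free mice 8.23, 8.0, 7.88, 7.97 and 8.27, against 7.85, 7.69, 7.56, 6.57 and 6.62 in Control mice. All mice of both diets were above all Control mice, of which TS29 and TS30 were much lower than the others. The difference was 1.32 (SE 0.21, adjusted p = 0.000729) after the protein-free diet and 0.81 (SE 0.21, adjusted p = 0.0143) after the CHO-free diet. Fat-free mice had 7.40, 7.63, 7.82 and 7.61, within the range of the Control mice, with a difference of 0.36 (SE 0.22, adjusted p = 0.998).

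The call of Hpd after 30%DR was lost without any 1 of the mice TS55 (adjusted p = 0.109), TS56 (0.0546), TS58 (0.0965), TS73 (0.0525), TS76 (0.0505) or TS78 (0.0518). It was also lost with only the compared groups in the fit (adjusted p = 0.0546). The call of Hpd after the CHO-free diet was lost without Control mouse TS29 (adjusted p = 0.0573) or TS30 (0.0537), and without CHO-free mice TS34 and TS35 together (0.91, adjusted p = 0.0523). It was lost as well with only the compared groups in the fit (adjusted p = 0.0604) and with array weights (0.65, adjusted p = 0.0587).

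The other enzymes of this pathway were not called by their brightest probe sets. Tat (tyrosine aminotransferase, a liver enzyme that opens the pathway), Hgd (homogentisate 1,2-dioxygenase) and Fah (fumarylacetoacetase, the last step) differed by -0.07 to 0.23 over the 5 diets. Tat stayed under a log2 signal of 5 in all 36 mice, as did Bcat2 and Hal, so a change in these 3 would be hard to see. A second, dimmer probe set of Hgd (1458049_PM_at) had 8.34, 8.39, 8.05 and 8.33 in fasted mice, against 7.38, 7.41, 7.54, 7.27 and 7.54 in SDS mice. It also had 6.92, 6.98, 6.92, 6.51 and 6.83 after 30%DR, against 6.00, 6.20 and 6.30 in SDS mice. It rose by 0.85 after fasting (SE 0.085, adjusted p = 4.42e-05) and by 0.66 after 30%DR (SE 0.17, adjusted p = 0.0406), while the brightest probe set differed by 0.07 and -0.06.

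In the breakdown of tryptophan, Kynu (kynureninase, which cleaves kynurenine and 3-hydroxykynurenine) was higher in 2 diets. Kynu averaged 4.02 in Control and 4.76 in CHO-free mice, under a log2 signal of 5, where a change is hard to judge. The mean of protein-free mice was 5.10. Its signals were 5.41, 5.62, 5.20, 4.83 and 4.45 in protein-free mice and 5.08, 4.71, 4.33, 4.60 and 5.09 in CHO-free mice, against 4.06, 4.17, 4.13, 3.80 and 3.91 in Control mice. No mouse of either diet was as low as the highest Control mouse, and the differences were 1.09 (SE 0.23, adjusted p = 0.0110) and 0.75 (SE 0.23, adjusted p = 0.0381) for the protein-free and the CHO-free diet. After 30%DR Kynu had 5.48, 4.28, 5.60, 4.86 and 4.79, against 4.12, 4.13 and 3.89 in SDS mice. Here too the groups did not overlap, but with a difference of 0.95 (SE 0.27) the adjusted p was 0.0728. Fasted mice had 4.49, 4.69, 4.60 and 4.35, against 4.16, 4.31, 4.43, 4.24 and 4.51 in SDS mice, an overlap (difference 0.20, adjusted p = 0.146). Fat-free mice spread from 3.44 to 4.71 around the Control mice.

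The call of Kynu after the CHO-free diet was the least firm of all, being lost in 12 of 18 alternatives. Among single mice it was lost without TS27 (adjusted p = 0.0511), TS28 (0.0539), TS29 (0.0915), TS30 (0.0767), TS31 (0.0906), TS35 (0.0609) or TS36 (0.0833), and without TS34 and TS35 together (0.0557). It was lost with a measure of RNA integrity, the excess of 3′ over 5′ Gapdh signal, as a covariate (0.91, adjusted p = 0.137), with the adipocyte markers as a covariate (0.0783), with array weights (0.06) and with renewed quantile normalization (0.0539). The second probe set of Kynu (1451903_PM_at), with group means of 2.99 to 3.50, differed by 0.22 after the protein-free and by -0.05 after the CHO-free diet (adjusted p = 0.463 and 0.863).

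Aadat (aminoadipate aminotransferase, which acts on kynurenine and on the lysine product 2-aminoadipate) was lower in 2 diets. It had 10.07, 10.93, 10.74 and 10.49 in fasted mice, against 11.93, 11.83, 11.90, 11.77 and 11.92 in SDS mice. The SDS mice differed little among themselves, and each fasted mouse was well below them (difference -1.31, SE 0.14, 2.48-fold lower, adjusted p = 6.72e-05). In CHO-free mice Aadat had 10.84, 11.12, 10.78, 10.79 and 10.40, against 11.48, 11.68, 11.28, 11.49 and 11.25 in Control mice. The ranges were apart and the difference was -0.65 (SE 0.11, adjusted p = 0.000496). Without mouse TS36, the lowest, it was -0.56, under the fold change minimum. Signals in protein-free mice were 11.37, 11.40, 11.50, 11.50 and 11.45, in fat-free mice 11.55, 11.71, 11.38 and 11.38, both overlapping the Control range. Those of 30%DR were 11.05, 11.17, 11.18, 11.54 and 11.40, against 11.29, 11.59 and 11.37 in SDS mice (difference -0.15).

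The other enzymes of lysine and tryptophan breakdown were not called against any control. Aass (aminoadipate semialdehyde synthase, which opens the saccharopine route of lysine), Aldh7a1 (which oxidises aminoadipate semialdehyde), Gcdh (glutaryl-CoA dehydrogenase), Kmo (kynurenine 3-monooxygenase) and Haao (3-hydroxyanthranilate dioxygenase) differed by -0.47 to 0.53 over the 5 diets. The values nearest to a call were those of Aldh7a1 after fasting (0.53, adjusted p = 0.00174) and of Kmo after the CHO-free diet (-0.47, adjusted p = 0.000914), both short of the fold change minimum.

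**Figure D2:**
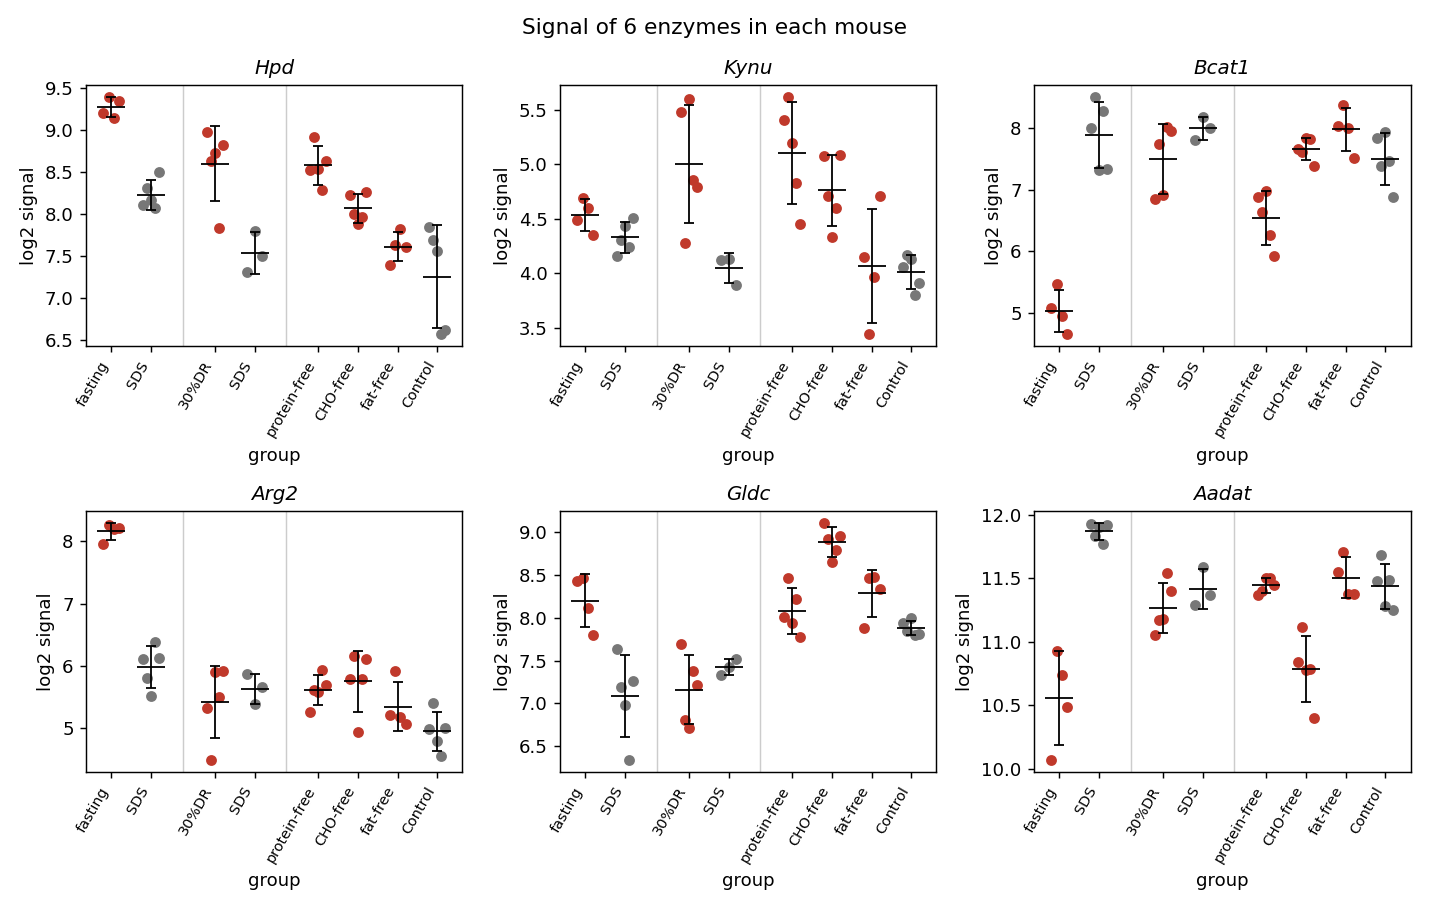
Log2 signal (vertical axis) of the 6 enzymes called in 2 or more diets, for each mouse (red, diets; grey, SDS or Control mice) with the mean and SD of each group. Grey lines part each set of diets with its own control, and Hpd is above its control in all diets except the fat-free one, where the ranges overlap.

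Among the first steps of branched-chain amino acid breakdown, only Bcat1 was called in any diet. It encodes the cytosolic aminotransferase of leucine, isoleucine and valine. Its signal was 5.08, 5.48, 4.95 and 4.66 in fasted mice, against 7.99, 8.50, 7.32, 8.27 and 7.33 in SDS mice. The difference of -2.84 (SE 0.25, 7.15-fold lower, adjusted p = 1.94e-05) was the largest of any enzyme in any diet. In protein-free mice Bcat1 had 6.88, 6.63, 6.97, 6.27 and 5.92, against 7.83, 7.38, 7.93, 7.46 and 6.88 in Control mice. The ranges overlapped only at Control mouse TS30, and the difference was -0.96 (SE 0.23, adjusted p = 0.0253). CHO-free mice had 7.65, 7.60, 7.83, 7.82 and 7.38 and fat-free mice 8.03, 8.36, 8.0 and 7.51, with differences from Control of 0.16 and 0.48 (adjusted p = 0.733 and 0.998). After 30%DR the signals were 6.84, 7.73, 6.92, 8.01 and 7.95, against 7.80, 8.18 and 7.99 in SDS mice. Of the 5 restricted mice, 2 (TS73 and TS76) were low and the others overlapped the controls (difference -0.50, SE 0.26, adjusted p = 0.461).

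The call of Bcat1 after the protein-free diet was lost without TS26 (adjusted p = 0.0654), TS28 (0.0809), TS29 (0.0546), TS52 (0.0801) or TS54 (0.0684), and with only the compared groups in the fit (0.0505). Of the dimmer probe sets of Bcat1, 1430111_PM_a_at fell by 0.81 after fasting (adjusted p = 0.000787), and 1455699_PM_at differed by -0.44 (adjusted p = 0.0310), short of the fold change minimum. After the protein-free diet they differed by -0.38 and -0.04 and were not called. They averaged 3.07 and 3.95 in protein-free mice, against 3.45 and 3.99 in Control mice, low signals at which a change would be hard to see.

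The remaining first steps are Bcat2 (the mitochondrial aminotransferase), Bckdha, Bckdhb and Dbt (parts of the branched-chain ketoacid dehydrogenase) and Bckdk (the kinase that inhibits it). They differed by -0.34 to 0.44 over the 5 diets, and 0 of these 5 were called. The ends of this range were Bckdha (0.44, adjusted p = 0.0313) and Bckdhb (-0.34, adjusted p = 0.0351) after the CHO-free diet. Both were short of the fold change minimum. In the leucine branch, Mccc1 and Mccc2 (the subunits of methylcrotonyl-CoA carboxylase) and Auh (methylglutaconyl-CoA hydratase) differed by -0.25 to 0.17. Mccc2 after fasting (-0.25, adjusted p = 0.0394) was short of the fold change minimum. In the valine and isoleucine branches, Acadsb, Acad8, Hibch, Hibadh and Aldh6a1 differed by -0.43 to 0.37. Hibch after fasting (0.37, adjusted p = 0.00622) and Acad8 after the CHO-free diet (-0.43, adjusted p = 0.0489) were also short of that minimum. Pcca and Pccb (propionyl-CoA carboxylase) and Mut (methylmalonyl-CoA mutase) differed by -0.39 to 0.16. Of the 17 measured enzymes of branched-chain and propionyl-CoA breakdown, 16 were not called in any diet by their brightest probe sets. The share of all genes not called in any diet was not counted.

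In the breakdown of proline, ornithine and arginine, Arg2 (the mitochondrial arginase, which makes ornithine and urea from arginine) was higher in 2 diets. It had 7.95, 8.27, 8.20 and 8.22 in fasted mice, against 6.10, 5.80, 5.51, 6.38 and 6.12 in SDS mice. The fasted mice lay far above the highest control, with a difference of 2.18 (SE 0.15, 4.53-fold, adjusted p = 3.6e-06). CHO-free mice had 5.79, 6.15, 4.93, 5.78 and 6.11, against 4.98, 5.40, 4.79, 4.54 and 4.99 in Control mice. Of the CHO-free mice, TS34 was inside the Control range and the other 4 were above it (difference 0.81, SE 0.24, adjusted p = 0.0266). Protein-free mice had 5.26, 5.60, 5.57, 5.93 and 5.68, of which 1 was inside the Control range, and the difference of 0.67 (SE 0.24) was not called (adjusted p = 0.175). Fat-free mice had 5.21, 5.92, 5.17 and 5.06 (difference 0.40, adjusted p = 0.998). After 30%DR Arg2 had 5.31, 4.48, 5.89, 5.50 and 5.91, overlapping the 5.86, 5.38 and 5.65 of SDS mice.

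The call of Arg2 after the CHO-free diet was lost without TS28 (adjusted p = 0.0574), TS29 (0.0812), TS32 (0.0513), TS35 (0.0606) or TS36 (0.0629). Prodh (proline dehydrogenase), Prodh2 (which oxidises hydroxyproline), Aldh4a1 (which oxidises the semialdehyde they lead to) and Oat (ornithine aminotransferase) were not called. They differed by -0.42 to 0.48 over the 5 diets. Aldh4a1 after fasting (-0.32, adjusted p = 0.0098) and Oat after the CHO-free diet (-0.38, adjusted p = 0.029) were short of the fold change minimum.

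Both alanine aminotransferases, which exchange the amino group between alanine and glutamate, were higher after fasting. Gpt, the cytosolic form, had 7.47, 7.56, 7.61 and 8.0 in fasted mice, against 6.31, 6.81, 6.53, 6.53 and 6.53 in SDS mice. The groups were well apart, and the difference was 1.12 (SE 0.12, 2.17-fold, adjusted p = 6.17e-05). Gpt2, the mitochondrial form, averaged 8.27 ± 0.18 in fasted mice and 7.31 ± 0.22 in SDS mice (SD, n = 4 and 5), a difference of 0.96 (SE 0.12, adjusted p = 0.000182). Gpt2 was also above every Control mouse in all protein-free mice (difference 0.47, adjusted p = 0.0295) and all CHO-free mice (0.49, adjusted p = 0.00646), but short of the fold change minimum. Gpt had 6.21, 6.21, 6.48, 6.36 and 6.22 in protein-free mice, 7.35, 6.78, 7.01, 6.96 and 6.63 in CHO-free mice and 6.77, 6.76, 6.47 and 6.20 in fat-free mice, against 6.71, 6.73, 6.54, 6.31 and 6.46 in Control mice. Protein-free mice lay at or under the lower part of the Control range and CHO-free mice at or over its upper part, with differences of -0.25 and 0.40 that were not called (adjusted p = 0.452 and 0.0604). After 30%DR Gpt had 7.08, 7.07, 6.43, 6.97 and 7.14, against 6.68, 6.97 and 6.79 in SDS mice, so the groups overlapped. Got2, the mitochondrial aspartate aminotransferase, differed by -0.06 to 0.18 in its brightest probe set.

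Of the enzymes of glycine and serine, Gldc (the decarboxylase of the glycine cleavage system) was higher in 2 diets. It had 8.43, 8.46, 8.11 and 7.80 in fasted mice, against 7.64, 7.19, 6.98, 6.34 and 7.26 in SDS mice. The lowest fasted mouse was close to the highest control, with a difference of 1.12 (SE 0.22, 2.17-fold, adjusted p = 0.0045). CHO-free mice had 9.11, 8.92, 8.65, 8.79 and 8.95, against 7.94, 7.85, 8.0, 7.80 and 7.81 in Control mice. Here both groups were narrow and wide apart (difference 1.01, SE 0.15, 2.01-fold, adjusted p = 0.000103). Protein-free mice had 8.01, 8.46, 7.94, 8.22 and 7.77 and fat-free mice 7.88, 8.46, 8.47 and 8.33, overlapping Control (differences 0.20 and 0.40, adjusted p = 0.644 and 0.998). After 30%DR the signals were 7.69, 6.81, 6.71, 7.38 and 7.21, with SDS mice at 7.33, 7.43 and 7.52 inside that spread. Dao (D-amino acid oxidase) averaged 9.03 ± 0.20 in fasted mice and 9.88 ± 0.068 in SDS mice, and it fell by 0.85 on the log2 scale (SE 0.087, adjusted p = 5.29e-05). Agxt2 (alanine-glyoxylate aminotransferase 2) differed by -0.18 to 0.21 over the 5 diets. Its 0.21 after fasting (adjusted p = 0.0488) was short of the fold change minimum.

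Among the enzymes of histidine and amines, 0 of 4 were called against a control. Hal (histidine ammonia-lyase), Ddc (aromatic L-amino acid decarboxylase, which makes dopamine in the proximal tubule), Abat (4-aminobutyrate aminotransferase) and Aldh9a1 (which oxidises aminobutyraldehyde) differed by -0.57 to 0.58. Aldh9a1 was higher in all 4 fasted mice than in any SDS mouse, with a difference of 0.58 (SE 0.062, adjusted p = 7.96e-05) just short of the fold change minimum. Without that minimum, 12 of the 43 enzymes were higher and 8 lower after fasting, against 10.7% of all genes higher and 12.5% lower. By the same rule 8 enzymes were higher and 5 lower after the CHO-free diet, against 5.88% of all genes higher and 6.4% lower.

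The protein-free and the CHO-free diet were also compared with each other, which does not involve the shared Control mice. In this contrast 4 of the 43 enzymes were higher in protein-free mice (Ddc, Prodh2, Kmo and Aadat) and 3 lower (Bcat1, Gldc and Gpt), against 1.92% of all genes higher and 1.7% lower. Kmo had 9.86, 9.59, 9.70, 9.81 and 9.70 in protein-free mice, against 9.08, 9.13, 8.85, 9.17 and 9.05 in CHO-free mice. The groups were wide apart relative to their spread, and the difference was 0.68 (SE 0.085, adjusted p = 8.37e-06). Prodh2 had 7.43, 7.91, 7.85, 7.11 and 7.46 in protein-free mice, against 7.03, 6.78, 6.97, 6.81 and 6.61 in CHO-free mice (difference 0.71, SE 0.14, adjusted p = 0.00166). These ranges did not overlap either, though the lowest protein-free mouse came near the highest CHO-free one. Ddc had 9.52, 10.12, 9.57, 10.12 and 10.03 in protein-free mice, against 9.31, 9.58, 8.32, 8.80 and 9.27 in CHO-free mice (difference 0.82, SE 0.19, adjusted p = 0.00851). The ranges overlapped, and CHO-free mice TS34 and TS35 were the lowest. Without these mice Ddc was no longer called (0.49, adjusted p = 0.174), nor was it with the Gapdh measure of RNA integrity as a covariate (0.56, adjusted p = 0.0217, under the fold change minimum). The second probe set of Ddc differed by 0.04. It averaged 3.32 in protein-free and 3.28 in CHO-free mice, so a change in it would be hard to see.

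Aadat differed by 0.66 between protein-free and CHO-free mice (SE 0.11, adjusted p = 0.000365), Bcat1 by -1.12 (SE 0.23, adjusted p = 0.00245), Gldc by -0.80 (SE 0.15, adjusted p = 0.000979) and Gpt by -0.65 (SE 0.14, adjusted p = 0.00303). In each of these 4 enzymes all protein-free mice lay on one side of all CHO-free mice. The difference was 0.56 for Aadat without TS36 and -0.55 for Gpt without TS31, both then under the fold change minimum. Hpd (0.51, SE 0.21, adjusted p = 0.156), Kynu (0.34, SE 0.23, adjusted p = 0.445) and Arg2 (-0.15, SE 0.24, adjusted p = 0.798) were not called between these diets, which does not show that the diets acted alike on them.

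**Figure D3:**
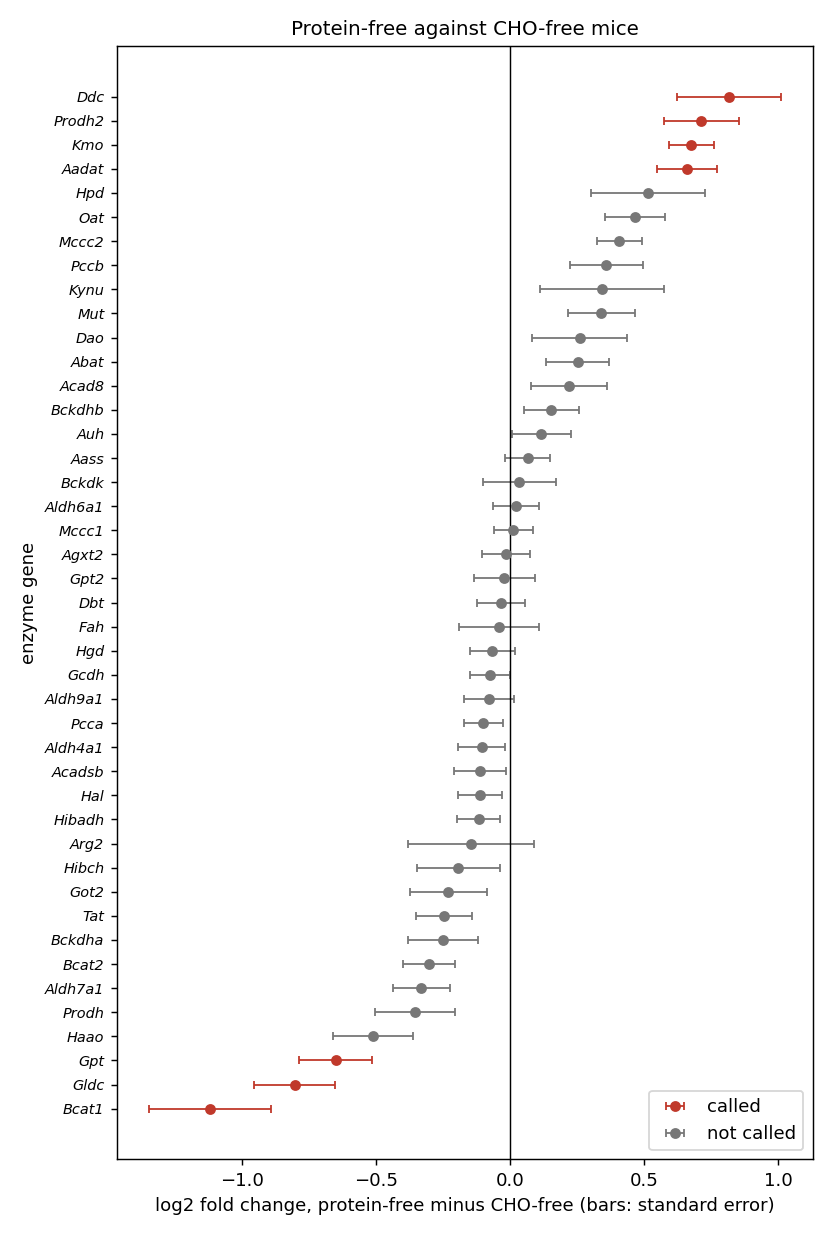
Log2 fold change, protein-free minus CHO-free mice (horizontal axis, n = 5 each), of the 43 enzymes with standard errors. Red points are called: Ddc, Prodh2, Kmo and Aadat at 0.66 to 0.82, and Gpt, Gldc and Bcat1 at -0.65 to -1.12.

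Several probe sets were present for 15 of the 43 enzymes, and in some they gave different answers. For Mccc2 the dimmer probe sets fell after the CHO-free diet, whereas the brightest differed by -0.24 (adjusted p = 0.0649). The fall was 1.10 for 1432472_PM_a_at (SE 0.28, adjusted p = 0.0118) and 0.80 for 1428021_PM_at (SE 0.19, adjusted p = 0.00781). The signal of 1428021_PM_at averaged 3.13 in CHO-free and 3.92 in Control mice, under 5, where a change is hard to judge. The difference of 1432472_PM_a_at rests on CHO-free mice TS34 and TS35, whose signals were 4.83 and 5.66. Those of the other 3 were 6.66, 7.0 and 6.56, and those of Control mice 6.98 to 7.53. Between protein-free and CHO-free mice 1432472_PM_a_at was called (0.91, adjusted p = 0.0442). The brightest Mccc2 probe set differed there by 0.41 (adjusted p = 0.00228), short of the fold change minimum. Without TS34 and TS35 these differences were 0.32 and 0.30 (adjusted p = 0.559 and 0.0608). The probe set 1417716_PM_at of Got2 fell by 0.71 (adjusted p = 0.0423), again with TS34 and TS35 lowest (6.05 and 6.59). The brightest probe set of Got2 differed by 0.17. The third, 1430397_PM_at, differed by 0.07, at low signals of 3.49 in CHO-free and 3.42 in Control mice. Without TS34 and TS35, none of 1432472_PM_a_at, 1428021_PM_at and 1417716_PM_at was called against Control. The differences were then -0.50, -0.72 and -0.37 (adjusted p = 0.266, 0.0952 and 0.489). Mice TS34 and TS35 also had the largest excess of the 3′ over the 5′ Gapdh control signal among CHO-free mice, 2.45 in each. It was 0.98 to 1.72 in the other 3 and 0.65 to 0.96 in Control mice. Single mice of other diets came close, 30%DR mouse TS75 with an excess of 2.22 and protein-free mouse TS49 with 2.19. This excess grows as RNA is degraded. With it as a covariate, 2 of the 24 called pairs of enzyme and comparison were no longer called. These were Kynu after the CHO-free diet and Ddc in protein-free against CHO-free mice. CHO-free mice (0.98 to 2.45) and Control mice (0.65 to 0.96) did not overlap in this excess. The covariate therefore cannot tell the CHO-free diet apart from RNA integrity in the calls that were kept. Leaving out TS34 and TS35 was done only for the called pairs whose comparison includes CHO-free mice, not for all 24. Of those pairs 3 were lost, Hpd and Kynu after the CHO-free diet and Ddc between the diets. By group it averaged 1.85 in CHO-free, 1.34 in protein-free and 1.27 in fat-free mice, against 0.82 in Control mice (two-sided exact permutation p = 0.00794, 0.111 and 0.0238, adjusted over 7 comparisons 0.0556, 0.194 and 0.0833). It averaged 1.59 after 30%DR against 1.27 in SDS mice (exact p = 0.393), and 0.93 after fasting against 0.88 in SDS mice (exact p = 0.706). Between protein-free and CHO-free mice it differed by -0.50 (exact p = 0.222).

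**Figure D4:**
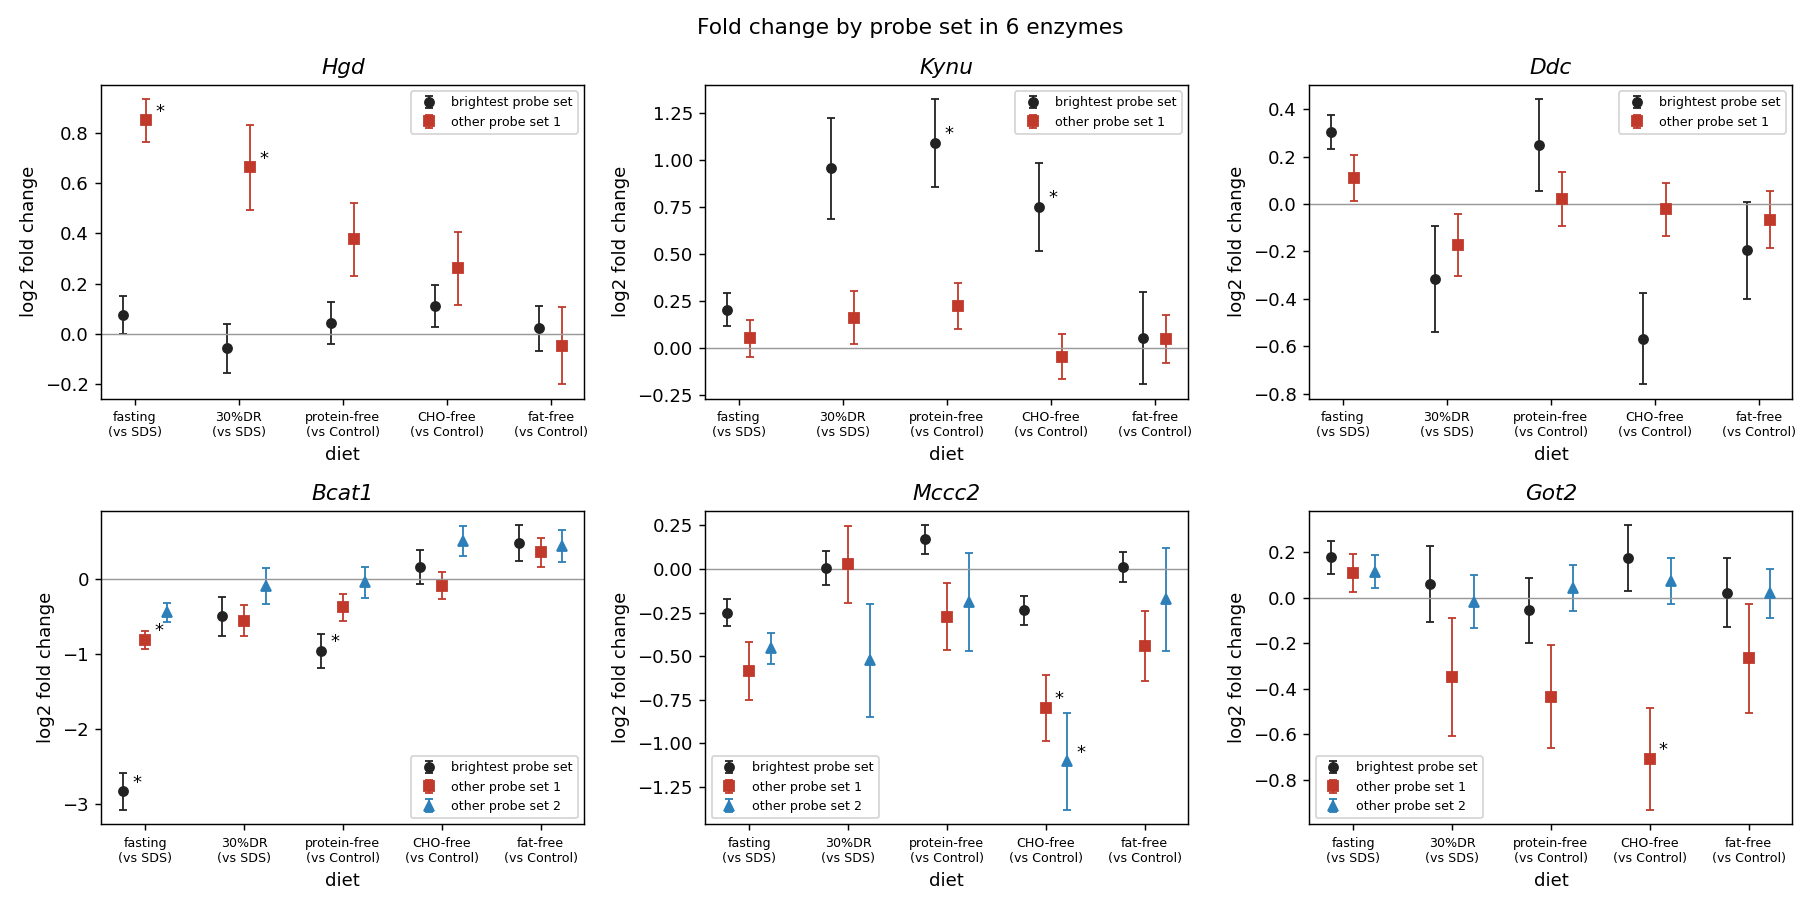
Log2 fold change (vertical axis, with standard error) of each probe set of 6 enzymes in the 5 diets against their own controls. Asterisks mark called probe sets, and in Hgd, Mccc2 and Got2 only the dimmer probe sets are marked.

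The Control diet was set against SDS chow within the second cohort. By the limma test 0 of the 43 enzymes were called in either direction, with 4 at an unadjusted p below 0.05, while 0% of all genes were called higher and 0.0702% lower. Arg2 averaged 4.94 ± 0.31 in Control mice and 5.63 ± 0.24 in SDS mice, a difference of -0.69 (adjusted p = 0.651), and Gldc averaged 7.88 ± 0.085 in Control mice and 7.43 ± 0.098 in SDS mice (SD, n = 5 and 3), a difference of 0.45 (adjusted p = 0.606).

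A further 49 genes of amino acid breakdown outside the list were looked at, of which 37 were measured. After fasting 5 of them rose, with Glud1 (glutamate dehydrogenase) by 1.13, Dhtkd1 (a dehydrogenase of the lysine product 2-oxoadipate) by 0.87, Asrgl1 (an asparaginase) by 0.86, Ftcd (of histidine breakdown) by 0.72 and Uroc1 (urocanase) by 0.65. In the same mice Ass1 (argininosuccinate synthase) fell by 0.90, Mmaa (of cobalamin handling) by 0.66 and Gcat (of threonine breakdown) by 0.59. Of all genes, 2.93% were called higher and 3.52% lower after fasting. After 30%DR Dhtkd1 rose by 0.79, and it was the only one called, against 0.509% of all genes higher and 0.608% lower. The protein-free diet gave 0 calls in either direction, against 0.526% of all genes higher and 0.497% lower. Of the 37 genes, 7 had an unadjusted p below 0.05 in limma. After the CHO-free diet Glud1 rose by 1.43, Sardh (sarcosine dehydrogenase) by 0.74 and Shmt1 (serine hydroxymethyltransferase) by 0.60. After the same diet Ass1 fell by 0.75 and Echs1 (enoyl-CoA hydratase) by 0.71, against 1.5% of all genes called higher and 2.61% lower. The fat-free diet gave 0 calls here, against 0% of all genes, with 4 of the 37 genes at an unadjusted p below 0.05. Between the diets, Hao2 (hydroxy acid oxidase) was higher in protein-free than in CHO-free mice by 0.80. In the same contrast Glud1 (-1.40), Sardh (-0.75), Mmab (-0.75) and Ftcd (-0.61) were lower. Over all genes 1.92% were called higher and 1.7% lower between these diets.

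Of 4 transcription factors known to act on these genes, Ppara (the fatty acid receptor of the fasting response) rose by 1.0 after fasting (adjusted p = 1.21e-05) and was not called in the other diets. Klf15, a known activator of amino acid breakdown, differed by 0.37 after fasting (adjusted p = 0.00148), 0.42 after 30%DR (adjusted p = 0.173) and 0.06, 0.16 and 0.01 after the protein-free, CHO-free and fat-free diets. Hnf4a and Atf4 were not called in any diet.

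Markers of the cell types in the sample moved in some comparisons. Of 10 proximal tubule markers 8 were measured, and their mean log2 signal lay between 10.91 and 11.31 in all 36 mice. After fasting 1 of them rose (Slc13a3, 0.76) and 2 fell (Slc5a2, -0.89, and Slc7a13, -0.89), and the mean was 11.02 to 11.07, against 11.09 to 11.27 in SDS mice. After the CHO-free diet Slc13a3 rose by 0.64 and Slc7a13 fell by 0.68, and the mean was 10.95 to 11.12, against 10.91 to 11.25 in Control mice. Of the distal convoluted tubule markers 2 of 4 fell after fasting (Pvalb, -1.01, and Calb1, -0.94), with a mean of 9.0 to 9.09, against 9.31 to 9.59 in SDS mice. In the thick ascending limb list 1 of 6 fell (Ptger3, -0.75), and the mean was 10.7 to 10.8 in fasted and 10.92 to 11.05 in SDS mice. Pvalb also fell after 30%DR (-0.83) and after the CHO-free diet (-0.73), as did Cldn16 of the thick ascending limb after the CHO-free diet (-0.62). The adipocyte mean, over 3 measured markers, was 6.42 to 6.79 after 30%DR, against 6.95 to 7.65 in SDS mice. It was 6.24 to 6.66 after the CHO-free diet, against 5.67 to 6.37 in Control mice, and 0 of the 3 were called in either diet. Of 8 leukocyte markers 5 fell after fasting (mean 6.17 to 6.42, against 6.73 to 7.11 in SDS mice) and 2 after the CHO-free diet (mean 5.96 to 6.18, against 6.26 to 6.80 in Control mice). The 4 hepatocyte markers spread widely in every diet, and of them Ttr fell by 1.04 after fasting and Cps1 rose by 1.36 after the CHO-free diet. Their mean was 6.50 to 8.73 after fasting, against 6.51 to 7.86 in SDS mice, and 6.19 to 8.10 after the CHO-free diet, against 6.13 to 6.79 in Control mice. In protein-free mice the hepatocyte mean was 5.79 to 6.62, against the same 6.13 to 6.79 in Control mice. In 30%DR mice it was 5.93 to 6.84, against 5.91 to 6.11 in SDS mice.

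Intercalated cells of the collecting duct, which secrete acid or base, had 4 measured markers. After the CHO-free diet 2 of them rose (Slc4a1, 1.09, and Aqp6, 0.93), and their mean was 8.42 to 8.74, against 7.66 to 8.39 in Control mice. After the protein-free diet 1 fell (Foxi1, -0.60). Between the diets 3 of the 4 were lower in protein-free mice (Slc4a1, -1.27, Aqp6, -1.11, and Foxi1, -0.74). The median difference was -0.93, and the means did not overlap, being 7.76 to 8.12 in protein-free and 8.42 to 8.74 in CHO-free mice. The principal cell means did not overlap either (7.87 to 8.18 in protein-free and 8.38 to 8.52 in CHO-free mice), with 1 of 4 markers lower (Aqp2, -0.90). In the same contrast the proximal tubule mean was 11.16 to 11.31 in protein-free and 10.95 to 11.12 in CHO-free mice, with 1 of 8 markers higher (Slc7a13, 0.76). The leukocyte (6.07 to 6.65 and 5.96 to 6.18), endothelial (6.44 to 7.07 and 6.05 to 6.66) and hepatocyte means (5.79 to 6.62 and 6.19 to 8.1) of protein-free and CHO-free mice overlapped, with 0 markers called. The part of these cell types in the enzyme results was not tested, apart from the adipocyte covariate.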

How the data were processed

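Kidney RNA of 36 mice had been hybridised to Affymetrix HT MG-430 PM arrays. The deposited values are log2 signals that the authors made with RMA, run apart on the fasting cohort (9 arrays) and on the others (27 arrays). Outlier arrays had been removed by the authors, and no source used here gives the RMA version. The values were used as deposited, from 2.00 to 13.9, with no further normalization, and 0 columns were left unmapped. The number of arrays limits the precision. limma 3.58.1 in R 4.3.3 was fitted to each cohort (eBayes defaults), with Benjamini-Hochberg adjustment over 45141 probe sets, and calls needed an adjusted p below 0.05 and a change of 1.5-fold or more. The script was tested on simulated data. Gene symbols came from the platform annotation (551 probe sets have several symbols and 15692 none), and a gene is its single-symbol probe set with the highest mean over all arrays, counted so for the 17097 background genes too. SDS controls were assigned to cohorts by the animal number in their titles. Enzymes called in at least 1 diet were named with values, with every mouse for those called in 2 diets or changed by a log2 size of 1 or more, the others in their pathway. For the contrast of protein-free with CHO-free, the per-mouse values of Kmo, Prodh2 and Ddc were chosen after they had been seen. The enzymes and all gene lists were chosen with earlier results of these data known, and so were the promoter motifs. Figures were drawn with matplotlib.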

Additional observations from a re-analysis of the deposited data

Results flagged for a closer look

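Single mice far from the rest of their group were looked for in the 9 enzymes called in at least 1 diet. Each enzyme in each group of 4 or more mice was 1 set, which gave 63 sets that reuse the same mice. The measure was the gap to the nearest mouse over the range of the group. It found 2 such mice, a smaller share than the 1 in 20 or so that chance gives. Arg2 was 5.92 in fat-free mouse TS38, with the others at 5.06 to 5.21. Gpt was 6.43 in 30%DR mouse TS76, with the others at 6.97 to 7.14.

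The effect of the protein-free diet differed from that of the CHO-free diet, tested as their direct contrast in limma, in 7 enzymes. The log2 difference was -1.12 for Bcat1, 0.66 for Aadat, 0.68 for Kmo, 0.71 for Prodh2, -0.65 for Gpt, -0.80 for Gldc and 0.82 for Ddc.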

How the results depend on the processing

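Each called difference was recomputed under other settings, namely a robust prior with a trend, renewed quantile normalization, the brighter probe sets alone, only the compared groups, array weights, a covariate (the Gapdh difference or the adipocyte markers) and fewer mice. Of 402 such recomputations of the 24 called pairs of enzyme and comparison, 362 kept the call and 0 changed direction, and 15 pairs were called in each. The Gapdh covariate ended the calls of Kynu after the CHO-free diet and of Ddc in protein-free against CHO-free mice. Counts of enzymes were also taken with no fold change minimum and with any probe set of a gene, which can only add calls and are not among the 402. With no minimum, 12 enzymes were higher and 8 lower after fasting (10.7% and 12.5% of all genes), and 8 higher and 5 lower after the CHO-free diet (5.88% and 6.4% of all genes). After 30%DR 2 enzymes were higher with the brighter probe sets alone or with any probe set, and 0 with only the compared groups, which also left 0 lower after the protein-free diet. After the CHO-free diet 2 were higher with array weights or without TS34 and TS35, and 3 were lower with any probe set.

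Leaving out each mouse in turn gave 5 to 6 enzymes higher and 3 lower after fasting. After 30%DR it gave 0 to 2 higher (0 without TS55, TS56, TS58, TS73, TS76 or TS78, 2 without TS75). After the protein-free diet it gave 0 to 1 lower (0 without TS26, TS28, TS29, TS52 or TS54). After the CHO-free diet it gave 1 to 4 higher (1 without TS29, 2 without TS28, TS30, TS35 or TS36) and 0 to 2 lower (0 without TS36, 2 without TS26 or TS32). In the contrast of protein-free with CHO-free mice it gave 3 to 4 higher and 2 to 3 lower. No paired analysis was possible because each mouse has its own animal number.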
